A study of Mus musculus with 7 samples.

Results

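Messenger RNA of splicing factor and small nuclear ribonucleoprotein (snRNP) genes was compared between fibroblasts sorted from mouse mammary tumors and stromal cells sorted from the normal mammary fat pad. The genes were chosen by name, as the rows of the count table whose symbol begins with Srsf and a number, Hnrnp, Sf3a or Sf3b and a number, Snrp, or Lsm and a number. This rule found 65 of the 24421 symbols: 11 Srsf, 20 Hnrnp, 9 Sf3, 12 Snrp and 13 Lsm genes. Of these, 57 had enough counts to be tested and 8 did not.

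The tumor group, labelled pCAF, held 3 libraries of cancer-associated fibroblasts from BALB/c mice. The tumors had grown to 1 cm after injection of 100000 4T1-luc cells, a mouse mammary carcinoma line that carries luciferase, into the mammary fat pad, and were dissociated with collagenase A. Cells with Ter119, CD45 or EpCAM were removed and cells with podoplanin (PDPN), a surface protein of fibroblasts and lymphatic endothelium, were kept. The other group, labelled NMF, held 4 libraries of cells from the fat pad of untreated BALB/c mice, dissociated with collagenases II and IV, sorted on the same negative markers and not selected on PDPN. The age field gave 8 weeks for pCAF mice and 12 weeks for NMF mice, although the design text called the mice age matched. In the selection field of pCAF replicate 3 PDPN was marked as negative, against its title and source, and the library was kept in pCAF. Tumor, age, dissociation and the PDPN gate differ together between the groups, so their parts in any difference cannot be told apart. The replicates are called biological and no animals are named, p-values therefore describe spread among libraries only, which may be technical.

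Splicing removes introns from pre-messenger RNA in the spliceosome, which assembles on each intron from snRNPs, particles of a small nuclear RNA with a ring of Sm or Lsm proteins and particle-specific proteins. The SF3A and SF3B complexes belong to the U2 particle and help it hold the branch point. SR proteins, encoded by the Srsf genes, mostly promote the use of nearby exons, while hnRNP proteins coat nascent transcripts and often act against exon inclusion. Dividing cells need newly assembled snRNPs, and changes in SR and hnRNP levels are known to shift splicing in tumors.

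Total counts ran from 1885039 to 4990070 per library, and values below are CPM (counts scaled to a fixed library size) computed with TMM scaling. A total of 3 counts, the limit that a count of 0 allows, corresponded to 0.560 to 1.69 CPM in single libraries. In each group 1 library stood apart, replicate 1 of pCAF and replicate 4 of NMF: 11090 genes had counts in the first of these, against 13222 to 14353 in the others. Between replicates, chi-square over its degrees of freedom was 40.0 and 42.2 for pairs with pCAF replicate 1 and 3.22 for the other pCAF pair, and 35.6 to 39.8 for pairs with NMF replicate 4 and 6.47 to 10.1 for the other NMF pairs. Among the splicing genes, pCAF replicate 1 was the lowest pCAF library in 38 of 57 (66.7%, against 49.5% of all tested genes) and NMF replicate 4 the lowest NMF library in 37 of 57 (64.9%, against 36.0%). The counts of changed genes are therefore also given without both libraries, an alternative added once the values were known. It compared pCAF replicates 2 and 3 with NMF replicates 1 to 3. Removing the library farthest from the rest of its group narrows the spread by construction. Adjusted p-values of that fit are therefore descriptive only.

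The promoters of 4 changed members are shown first, since the members share a name and a function and their upstream sequence is what the rule did not use. They are the 250 bases before the annotated start (RefSeq, GRCm38.p6), 5′ to 3′ on the gene's strand, of the member with the largest rise (Snrpe), of 2 Hnrnp members that rose (Hnrnpa0 and Hnrnpab) and of 1 that fell (Hnrnpul1). Capitals mark matches to a CCAAT box (CCAAT or its reverse complement ATTGG), a GC box (GGGCGG or CCGCCC), or one of 4 further motifs named below. The regions are chr1:133610281-133610530, chr13:58128557-58128806, chr11:51606882-51607131 and chr7:25754760-25755009, all on the minus strand.
Snrpe: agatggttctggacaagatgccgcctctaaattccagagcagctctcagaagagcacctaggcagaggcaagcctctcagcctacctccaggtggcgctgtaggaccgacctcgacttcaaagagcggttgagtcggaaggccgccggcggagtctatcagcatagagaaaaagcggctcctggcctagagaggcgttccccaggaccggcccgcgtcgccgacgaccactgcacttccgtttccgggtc
Hnrnpa0: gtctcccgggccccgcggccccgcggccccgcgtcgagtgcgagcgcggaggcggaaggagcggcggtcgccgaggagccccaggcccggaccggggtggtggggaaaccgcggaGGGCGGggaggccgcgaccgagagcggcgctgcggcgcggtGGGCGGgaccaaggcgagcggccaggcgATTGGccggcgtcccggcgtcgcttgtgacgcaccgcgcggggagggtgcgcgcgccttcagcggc
Hnrnpab: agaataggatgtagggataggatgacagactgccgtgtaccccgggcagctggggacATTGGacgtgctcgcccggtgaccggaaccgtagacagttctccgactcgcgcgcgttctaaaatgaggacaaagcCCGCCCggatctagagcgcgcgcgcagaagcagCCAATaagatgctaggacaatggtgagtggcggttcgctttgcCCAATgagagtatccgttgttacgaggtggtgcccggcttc
Hnrnpul1: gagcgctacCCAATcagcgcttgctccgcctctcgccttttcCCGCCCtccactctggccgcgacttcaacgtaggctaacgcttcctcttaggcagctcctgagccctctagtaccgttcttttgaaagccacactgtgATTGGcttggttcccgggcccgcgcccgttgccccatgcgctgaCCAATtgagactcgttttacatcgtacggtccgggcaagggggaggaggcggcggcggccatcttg

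The Snrpe window held none of the motifs. Hnrnpa0 held 2 GC boxes and 1 CCAAT box, Hnrnpab 1 GC box and 3 CCAAT boxes, and Hnrnpul1, which went the other way, also 1 GC box and 3 CCAAT boxes. Over the 56 members with an entry, a GC box was found in 38 (67.9%), against 32.9% of 27025 promoters of the same length, and a CCAAT box in 25 (44.6%, against 34.5%). The 27025 promoters were taken whether or not their genes had enough counts to be tested here. The members were not compared with the promoters of tested genes alone. The ETS motif CCGGAAG or CTTCCGG was found in 16 (28.6%, against 7.05%), of which 1 belonged to a member that rose, Sf3b6, and none to a member that fell. The RUNX motif TGTGGT or ACCACA was found in 4 members (7.14%, against 14.2%), the E box CACGTG in 3 (5.36%, against 6.05%) and the TATA box TATAAA or TTTATA in 5 (8.93%, against 13.0%). Of 12 members with an entry that rose, 8 held a GC box and 7 a CCAAT box; of 3 that fell, 3 and 2 did. The motifs were chosen after promoters had been looked at, both strands were searched, neighbouring matches can share letters, and a match is a description of the letters alone.

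With a threshold of 0.05 on the adjusted p of edgeR, 15 of the 57 tested splicing genes rose in pCAF and 3 fell (26.3% and 5.26%), while 39 did not pass. Over all 10535 genes tested, 28.4% passed, 14.3% higher and 14.2% lower, so the share of members that passed, 31.6%, was near that of all genes, with 15 of the 18 on the higher side. The median log2 fold change of the members was 0.40, against -0.02 for all genes, and 40 of 57 values were positive. All 3 pCAF libraries lay above all 4 NMF libraries in 19 members (33.3%, against 19.0% of all genes) and below them in 5 (8.77%, against 21.4%). Among the changed members, 12 rose and 2 fell at least 2-fold. Without both libraries that stood apart, 28 members were higher and 7 lower (49.1% and 12.3%), against 25.9% and 26.9% of the 10838 genes then tested; the 18 changed members were among the 35. With library totals in place of TMM factors, 37.1% of all calls were on the higher side in place of 50.2%, the median of all genes moved to -0.26 and that of the members to 0.18, and 14 of the 18 members still passed.

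**Figure D1:**
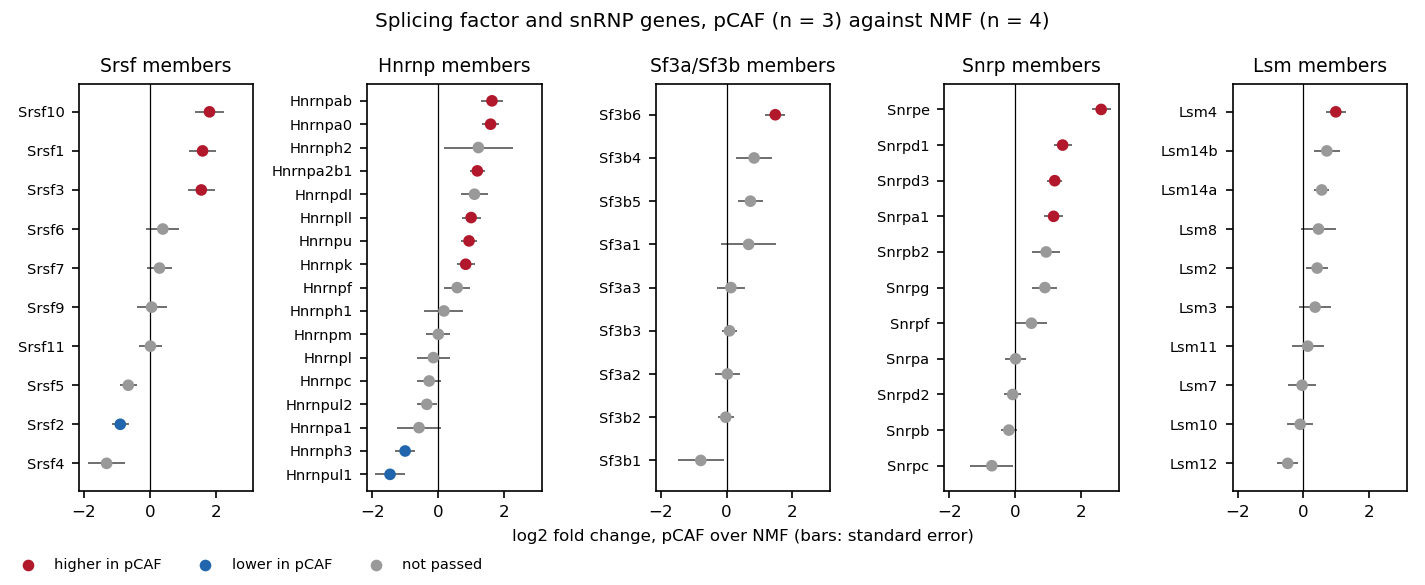
Fitted log2 fold change, pCAF over NMF, of the 57 tested splicing genes, grouped by name family (bars are standard errors). Points for genes that passed an adjusted p of 0.05 lie mostly to the right of 0, with Snrpe at 2.62 the farthest, and Srsf2, Hnrnph3 and Hnrnpul1 are the 3 that passed to the left.

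Summed over all 65 genes, the level was 4895, 5399 and 5618 CPM in pCAF replicates 1 to 3 and 3841, 4059, 4054 and 3101 CPM in NMF replicates 1 to 4. The sums of the groups did not overlap. They did not overlap for the Hnrnp family either, at 2109 to 2348 CPM in pCAF and 1060.4 to 1331 in NMF, nor for the Sf3, Snrp and Lsm families (664 to 757 against 458 to 595, 986 to 1257 against 584 to 927, and 524 to 589 against 288 to 459 CPM). The Srsf sum lay the other way, at 613 to 702 CPM in pCAF and 711 to 851 in NMF. Sums follow the most abundant members. In bulk samples a change in the cells that make up a sort and a change in RNA per cell cannot be told apart.

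The largest single rise was that of a gene of the Sm ring, the 7 proteins (SmB to SmG) that close around the snRNA of the U1, U2, U4 and U5 particles. Of its 7 tested genes, 3 rose and 0 fell by edgeR, and likewise by DESeq2 and limma-voom. Over all genes tested, 14.3% were higher and 14.2% lower by edgeR. At an unadjusted p under 0.05 by edgeR there were 4 higher and 0 lower, when 4221 of all 10535 genes were under it. Snrpe, which encodes SmE (chr1, 133603871 to 133610291, minus strand), was at 84.8, 68.7 and 85.9 CPM in pCAF and at 10.8, 16.0, 14.8 and 10.5 CPM in NMF. All pCAF libraries were several times above all NMF libraries. The log2 fold change was 2.62 (SE 0.29, 6.14-fold), the largest of the 57, and its adjusted p was 1.72e-04. The 3' end of Snrpe has 2 near-identical annotated copies, Gm43124 and Snrpert, so its share of reads is uncertain. Snrpd3, the gene of SmD3 (chr10, 75517551 to 75537381, plus strand), was at 138, 127 and 142 CPM in pCAF and 53.7, 65.9, 63.4 and 52.7 CPM in NMF. Here too the groups were apart, with little spread inside either (2.31-fold, log2 1.21, SE 0.23, adjusted p = 0.00320). Snrpd1, the gene of SmD1, was at 114, 203 and 172 CPM in pCAF and 59.5, 74.7, 52.5 and 52.3 CPM in NMF. Its lowest pCAF library, replicate 1, was still above every NMF library (2.73-fold, log2 1.45, SE 0.28, adjusted p = 0.00341), although 1 near-identical copy of its 3' end makes its share of reads uncertain.

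The other Sm genes did not pass. Snrpg was at 101, 123 and 90.3 CPM in pCAF against 76.1, 70.9, 54.6 and 22.8 in NMF, with no overlap (adjusted p = 0.100), and Snrpf at 32.2, 120.0 and 122 against 63.7, 87.8, 78.5 and 29.9 (adjusted p = 0.480). Snrpb, the gene of the SmB proteins, was at 284, 219 and 197 CPM in pCAF and 256, 300.2, 277 and 229.5 in NMF, and Snrpd2, the gene of SmD2, at 96.5, 126 and 118 against 116, 123, 149 and 88.3 CPM. These values overlapped between the groups (adjusted p = 0.610 and 0.869). Snrpn, the imprinted homolog of Snrpb that is best known from the brain, had no count in any library. Its 3' end overlaps Gm38393 on the same strand, so whether its reads could be counted is uncertain. Over the 7 Sm genes, log2 fold changes ran from -0.19 to 2.62, with a median of 0.91. Without both libraries that stood apart, Snrpf and Snrpg were higher (log2 0.65 and 0.66, adjusted p = 0.00591 and 0.0102) and Snrpb lower (log2 -0.43, adjusted p = 0.0450) in pCAF.

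Among the proteins particular to U1 and U2, Snrpa1, the gene of the U2 protein A′ (chr7, 66059003 to 66074587, plus strand), rose, at 81.5, 118 and 120.3 CPM in pCAF against 46.0, 58.3, 51.7 and 33.4 in NMF. No NMF library reached the pCAF values (2.25-fold, log2 1.17, SE 0.28, adjusted p = 0.0109). Its partner in the U2 particle, Snrpb2, the gene of protein B″, was at 64.8 and 87.0 CPM in pCAF replicates 2 and 3 and at 20.5 in replicate 1, against 24.1 to 39.0 CPM in NMF (adjusted p = 0.132). Without both libraries that stood apart it was higher (log2 1.28, adjusted p = 1.69e-04). The U1 gene Snrpa was at 25.5 to 49.0 CPM in pCAF and 25.8 to 42.6 in NMF (adjusted p = 0.976). The U1 gene Snrpc was at 7.76, 38.9 and 47.7 CPM in pCAF and 64.5, 66.3, 63.4 and 12.1 in NMF (adjusted p = 0.461), and was lower without both libraries (log2 -0.59, adjusted p = 0.0194). The 3' ends of Snrpa and Snrpc have 6 and 4 near-identical copies.

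**Figure D2:**
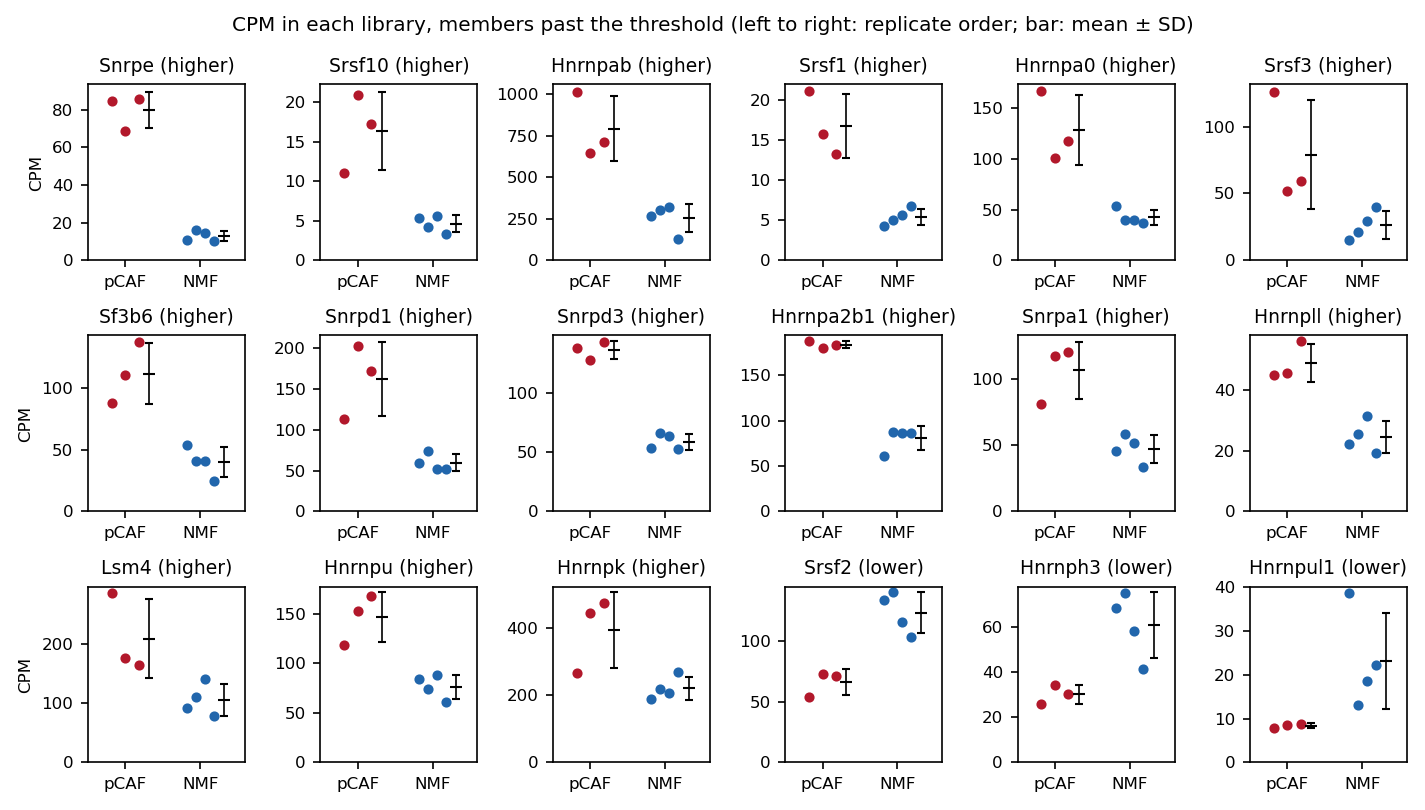
CPM in each library of the 18 changed members on linear axes from 0, with 1 point for each library in replicate order and a bar for the mean ± SD of each group (pCAF n = 3, NMF n = 4). For Snrpe, Snrpd3 and Hnrnpa2b1 the pCAF points lie above all NMF points, and for Srsf2 below them.

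Of the 9 SF3 genes 1 rose and 0 fell by edgeR, DESeq2 and limma-voom, with the same numbers at an unadjusted p under 0.05. By edgeR 11.1% of them passed, against 28.4% of all genes. An unadjusted p under 0.05 was found by edgeR for 4221 of all 10535 genes. Sf3b6, whose small protein contacts the branch point adenosine (chr12, 4817544 to 4827659, plus strand), was at 87.6, 110.4 and 137 CPM in pCAF and 54.1, 41.0, 40.5 and 25.0 CPM in NMF. All pCAF values were above all NMF values (2.79-fold, log2 1.48, SE 0.31, adjusted p = 0.00559). Sf3b1, the large scaffold of the complex and a gene mutated in several cancers, held few counts, at 0.555, 3.94 and 4.99 CPM in pCAF and 8.11, 5.49, 4.58 and 3.92 in NMF. The groups overlapped and the difference did not pass (log2 -0.78, SE 0.70, adjusted p = 0.443). Sf3b2, another subunit of SF3B, was at 189 to 225 CPM in pCAF and 175 to 259 in NMF (log2 -0.03, SE 0.24, adjusted p = 0.950). Sf3b5 was at 190.2, 164 and 149 CPM in pCAF, above its 39.2 to 135 CPM in NMF, without passing (adjusted p = 0.187). Sf3a1, a subunit of the SF3A complex, had no count in pCAF replicate 1, which allows up to 1.66 CPM there, 21.4 and 17.7 CPM in replicates 2 and 3, and 6.33 to 9.71 CPM in NMF. Sf3a1 was higher without both libraries that stood apart (log2 1.34, adjusted p = 0.00297), as was Sf3b4 (log2 0.87, adjusted p = 0.00114), which was at 23.8, 77.2 and 70.4 CPM in pCAF and at 8.78 to 43.5 CPM in NMF. The remaining subunits Sf3a2, Sf3a3 and Sf3b3 overlapped between the groups, with log2 fold changes of 0.02, 0.13 and 0.09 (adjusted p = 0.971, 0.846 and 0.821). The 3' end of Sf3a2 has 1 near-identical copy, and that of Sf3a3 overlaps Mir697.

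Srsf genes, which encode the SR proteins, went in both directions: of 10 tested, 3 rose and 1 fell by edgeR and limma-voom. By edgeR 40% of them passed, against 28.4% of all genes. By DESeq2, and at an unadjusted p under 0.05, 3 were higher and 3 lower. By edgeR 4221 of all 10535 genes had an unadjusted p under 0.05, and the DESeq2 share over all genes is not given here. Srsf1, an SR protein among the first to be described and a known oncogene (chr11, 88047373 to 88053755, plus strand), was at 21.1, 15.8 and 13.3 CPM in pCAF and 4.25, 5.07, 5.63 and 6.72 CPM in NMF. The groups did not overlap (3.04-fold, log2 1.61, SE 0.41, adjusted p = 0.0159). Srsf3, the smallest SR protein (chr17, 29032628 to 29043373, plus strand), was at 126, 51.8 and 59.3 CPM in pCAF and 15.1, 21.5, 29.2 and 40.0 CPM in NMF. Its pCAF replicate 1 was well above the other pCAF libraries, and all were above NMF (2.96-fold, log2 1.57, SE 0.42, adjusted p = 0.0182). Srsf10, an SR protein that represses splicing when it loses its phosphates (chr4, 135855747 to 135869908, plus strand), was at 11.1, 20.8 and 17.2 CPM in pCAF and 5.41, 4.22, 5.63 and 3.36 CPM in NMF (3.52-fold, log2 1.82, SE 0.45, adjusted p = 0.0126). Its lowest pCAF value was above its highest NMF value. The calls were lost for Srsf1 without NMF replicate 1 (adjusted p = 0.0528) or 2 (0.0502), for Srsf3 without NMF replicate 1 (0.0591) or 2 (0.0613), and for Srsf10 without pCAF replicate 2 (0.0717); with 1 library left out in turn the adjusted p of the 3 ran from 0.00272 to 0.0717.

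Srsf2, which encodes the SR protein SC35 (chr11, 116849901 to 116853094, minus strand), went the other way. It was at 53.8, 73.2 and 71.5 CPM in pCAF and 134, 141, 116 and 103 CPM in NMF, with all pCAF libraries lower (1.86-fold, log2 -0.90, SE 0.25, adjusted p = 0.0230). Its 3' end overlaps Mettl23 on the opposite strand, and the call was lost when any of pCAF replicates 2 and 3 or NMF replicates 1 to 3 was left out (adjusted p 0.0515 to 0.0663). Srsf4 and Srsf5 were also below NMF in every pCAF library without passing: Srsf4 was at 2.77, 24.8 and 24.9 against 36.8 to 48.1 CPM (adjusted p = 0.103) and Srsf5 at 219, 243 and 234 against 252 to 414 CPM (adjusted p = 0.0859). Srsf4 passed by DESeq2 (adjusted p = 0.0492) and without pCAF replicate 1 (0.0282), and Srsf5 by DESeq2 (0.0375), with library totals (0.0297) and without NMF replicate 4 (0.0232). Over all fits with another setting or 1 library left out, adjusted p reached 0.193 for Srsf4 and 0.202 for Srsf5. Both were lower without the libraries that stood apart (log2 -0.89 and -0.77, adjusted p = 0.00342 and 0.00111), and Srsf6 was higher (log2 0.79, adjusted p = 0.0291). With all libraries Srsf6 overlapped between the groups and did not pass (log2 0.40, adjusted p = 0.602). Srsf11 was at 107 to 123 CPM in pCAF and at 75.3, 89.5, 89.8 and 191 CPM in NMF, where replicate 4 was high (adjusted p = 0.974). Srsf7 and Srsf9 overlapped between the groups (adjusted p = 0.605 and 0.942).

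Of the 17 tested Hnrnp genes, the largest of the families, 6 rose and 2 fell, when 14.3% of all genes were higher and 14.2% lower. DESeq2 called 7 higher and 2 lower and limma-voom 6 and 1, and the shares of these tests over all genes are not given here. Genes of the A/B type, whose proteins bind RNA through paired recognition motifs, led the rises. Hnrnpa0 (chr13, 58125879 to 58128556, minus strand) was at 166, 100.3 and 118 CPM in pCAF and 53.3, 39.3, 40.1 and 37.2 CPM in NMF. The lowest pCAF library was above the highest NMF library (3.02-fold, log2 1.59, SE 0.27, adjusted p = 0.00185). Hnrnpa2b1, whose protein also sorts RNA into exosomes (chr6, 51460932 to 51469894, minus strand), was at 187, 179.7 and 184 CPM in pCAF and 60.6, 87.4, 86.9 and 86.8 CPM in NMF. The pCAF values were nearly the same in all 3 libraries (2.28-fold, log2 1.19, SE 0.24, adjusted p = 0.00424). Hnrnpab, a relative (chr11, 51600100 to 51606847, minus strand), was at 1012, 646 and 714 CPM in pCAF and 267, 305, 318 and 129.6 CPM in NMF. The groups were apart (3.11-fold, log2 1.63, SE 0.34, adjusted p = 0.00569), although the 3' end of Hnrnpab overlaps Phykpl on the opposite strand. Hnrnpa1, the best known member of the type, did not follow: it was at 8.87, 37.2 and 33.3 CPM in pCAF and 43.6, 67.1, 41.9 and 7.10 CPM in NMF. Its groups overlapped, with pCAF replicate 1 and NMF replicate 4 far below the others (log2 -0.58, SE 0.67, adjusted p = 0.560). Leaving out both gave a log2 fold change of -0.53 (adjusted p = 0.0772).

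Hnrnpu, which binds chromatin as well as RNA, was at 119, 153 and 168 CPM in pCAF and 83.8, 73.9, 88.0 and 60.7 CPM in NMF (1.92-fold, adjusted p = 0.0182). Hnrnpll, known for directing CD45 splicing in lymphocytes, was at 44.9, 45.6 and 56.0 CPM against 22.0, 25.3, 31.3 and 19.0 CPM (2.00-fold, adjusted p = 0.0254). For both, all pCAF libraries were higher. Hnrnpk, a poly(C)-binding protein, was at 265, 443 and 474 CPM in pCAF and 188, 219, 207 and 268 CPM in NMF (1.78-fold, adjusted p = 0.0444), the only changed member whose groups overlapped, and its 3' end has 2 near-identical copies. The calls of these 3 genes were lost in 3 to 5 of the 7 fits that left out 1 library, with adjusted p up to 0.157 for Hnrnpk, 0.0993 for Hnrnpll and 0.0741 for Hnrnpu, and with library totals (0.140, 0.0751 and 0.0664). Upper quartile scaling also ended the call of Hnrnpk (0.0579), and testing without a filter those of Hnrnpk (0.0702) and Hnrnpll (0.0515). All 3 passed without both libraries that stood apart (log2 1.15, 0.94 and 0.96, adjusted p = 1.74e-05, 0.00264 and 1.43e-04). The 3' end of Hnrnpu overlaps Cox20 on the opposite strand.

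The falls in this family were Hnrnph3 and Hnrnpul1. Hnrnph3, a member of the H/F type that binds runs of guanines (chr10, 63014664 to 63024217, minus strand), was at 26.1, 34.4 and 30.5 CPM in pCAF and 68.8, 75.2, 58.4 and 41.6 CPM in NMF (2.01-fold lower, SE 0.30 on the log2 scale, adjusted p = 0.0303). Hnrnpul1, a relative of hnRNP U (chr7, 25721165 to 25754757, minus strand), was at 7.76, 8.45 and 8.87 CPM in pCAF and 38.6, 13.1, 18.7 and 22.2 CPM in NMF (2.76-fold lower, log2 -1.46, SE 0.45, adjusted p = 0.0339). All pCAF libraries were below all NMF libraries for both. Each call was lost in 5 of the 7 fits that left out 1 library, with adjusted p up to 0.0874 and 0.113; NMF replicate 4 was the only NMF library that Hnrnph3 kept its call without, and NMF replicate 2 the only one for Hnrnpul1, whose call limma-voom did not make (0.0875).

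**Figure D3:**
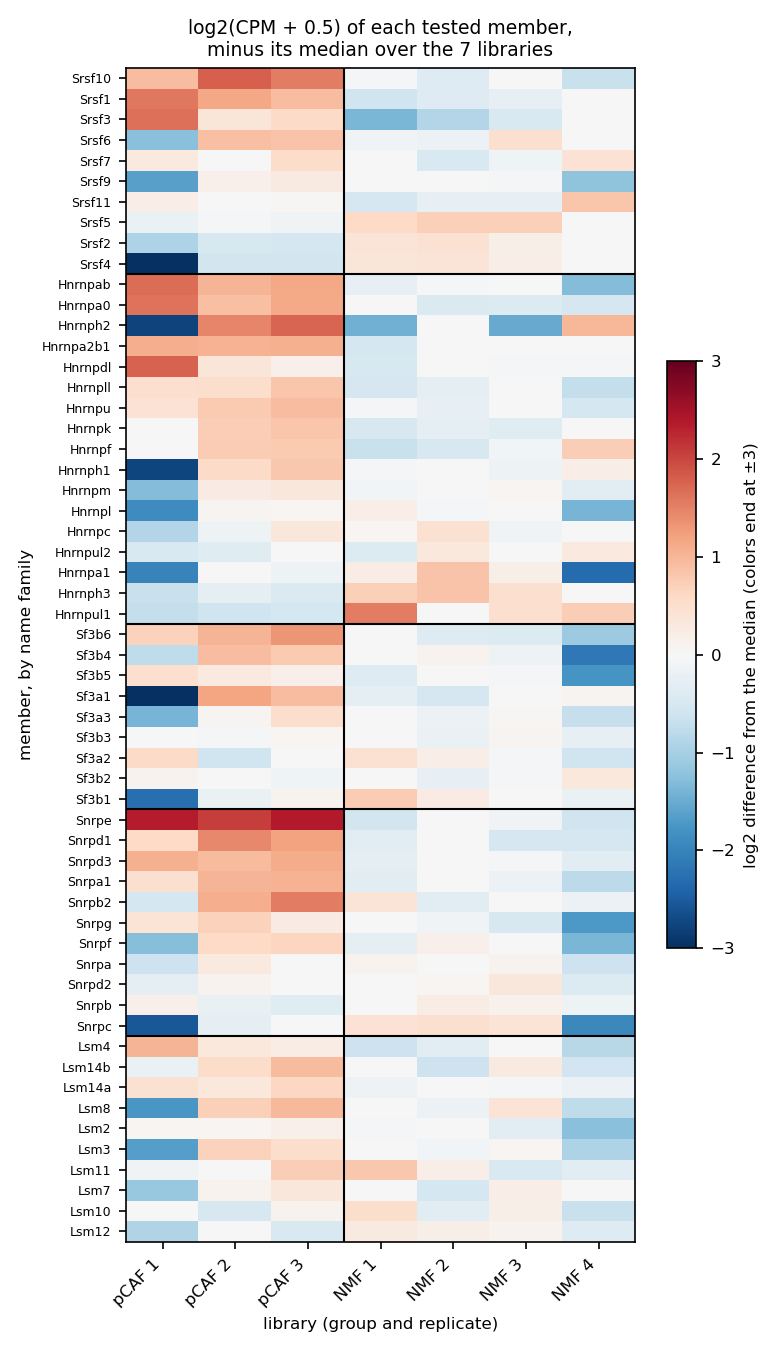
Log2 of CPM plus 0.5 for each tested splicing gene (rows, by family) in each of the 7 libraries (columns), minus the gene's median over the libraries. The pCAF columns of Snrpe, Hnrnpa0 and Hnrnpab are at or above the gene's median throughout, and pCAF replicate 1 and NMF replicate 4 stand low in many rows, among them Hnrnpa1, Snrpc and Sf3b4.

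The remaining Hnrnp members overlapped between the groups or missed the threshold. Hnrnpdl came closest, at 103, 38.9 and 33.3 CPM in pCAF against 21.2 to 30.0 CPM in NMF, with no overlap (adjusted p = 0.0654). It passed by DESeq2 (0.0466) and without pCAF replicate 3 (0.0377), while the other fits reached up to 0.241. Hnrnpm was at 63.8, 188 and 199 CPM in pCAF and 125 to 166 in NMF (log2 0.00, adjusted p = 0.995), and Hnrnph1 at 12.2, 128 and 150.2 CPM against 76.7 to 98.2 (adjusted p = 0.858). In both, pCAF replicate 1 was far below the other pCAF libraries. When both libraries that stood apart were left out, Hnrnph1 and its relatives Hnrnpf and Hnrnph2 were higher (log2 0.76, 1.18 and 2.76, adjusted p = 0.00117, 8.10e-04 and 9.67e-04), opposite to Hnrnph3 of the same type, which was lower (log2 -1.06, adjusted p = 4.94e-04). The 3' ends of Hnrnpf and Hnrnph2 have 7 and 1 near-identical copies. Hnrnpc, Hnrnpl and Hnrnpul2 overlapped between the groups (adjusted p = 0.626, 0.861 and 0.436), and the 3' end of Hnrnpc has 2 near-identical copies.

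Lsm genes encode proteins that form rings on the U6 RNA and on messenger RNA bound for decay. Of 10 tested, 1 rose and 0 fell by edgeR, DESeq2 and limma-voom, with 2 higher and 0 lower at an unadjusted p under 0.05. By edgeR 10% of them passed, against 28.4% of all genes. An unadjusted p under 0.05 was found by edgeR for 4221 of all 10535 genes. Lsm4, a subunit of both rings (chr8, 70673248 to 70678752, plus strand), was at 286, 176 and 164 CPM in pCAF and 91.2, 111, 141 and 79.0 CPM in NMF. All pCAF libraries were higher (1.98-fold, log2 0.98, SE 0.30, adjusted p = 0.0328). The call was lost in 5 of the 7 fits that left out 1 library (adjusted p up to 0.103) and with library totals (0.0738). Of the other ring subunits, Lsm2 was at 39.4 to 42.1 CPM in pCAF and 15.7 to 38.0 in NMF (adjusted p = 0.403), Lsm3 at 12.8, 65.9 and 58.8 CPM against 21.3 to 42.6 (adjusted p = 0.634) and Lsm8, the subunit of the nuclear ring, at 12.8, 71.5 and 86.5 CPM against 25.6 to 58.1 (adjusted p = 0.565). Lsm7 was at 7.76 to 22.7 CPM in pCAF and 12.2 to 20.4 in NMF (adjusted p = 0.956). Lsm10 and Lsm11, which replace 2 Sm proteins in the U7 particle that processes histone messages, had adjusted p-values of 0.881 and 0.871. Lsm14a, a P-body protein, was at 97.6, 88.4 and 109 CPM in pCAF and 63.3 to 71.4 in NMF, with no overlap (adjusted p = 0.0905). Lsm12 was at 21.1 to 40.0 CPM in pCAF and 30.6 to 48.3 in NMF (adjusted p = 0.300). In the fit without both libraries that stood apart Lsm3, Lsm8, Lsm14a and Lsm14b were higher (log2 0.60, 0.74, 0.53 and 0.84, largest adjusted p = 0.0199). With all libraries Lsm14b overlapped between the groups and did not pass (log2 0.71, adjusted p = 0.203). The 3' ends of Lsm3 and Lsm7 have 1 and 2 near-identical copies.

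The 8 other members were too low to test. Counts per library were 0 to 2 for Srsf12, 0 to 3 for Hnrnpa3, 2 to 20 for Hnrnpd, 0 to 17 for Hnrnpr, 0 to 7 for Lsm1, 0 to 1 for Lsm5 and 0 to 3 for Lsm6, besides Snrpn. With so few counts no difference between the groups could be seen in them. Lsm1 is the subunit of the cytoplasmic ring, so the ring for messenger RNA decay was measured only through the subunits it shares with the nuclear ring. The 3' ends of Hnrnpa3, Lsm6, Lsm5 and Hnrnpr have 32, 4, 2 and 1 near-identical copies among annotated transcripts, and how reads with several matches were counted is not given in the sources used here.

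Nearest below it were Hnrnpul1 (adjusted p = 0.0339), Lsm4 (0.0328) and Hnrnpk (0.0444), and above it Hnrnpdl (0.0654), Srsf5 (0.0859) and Lsm14a (0.0905). Of the 18 changed members, 8 kept their call in all 7 fits that left out 1 library and under every other scaling, test, filter, thinning and block that was planned: Hnrnpa0, Hnrnpa2b1, Hnrnpab, Sf3b6, Snrpa1, Snrpd1, Snrpd3 and Snrpe. All 8 were higher in pCAF. Among members that did not pass with all libraries, Hnrnph1, Lsm14b, Lsm8, Sf3a1, Snrpb2 and Srsf4 passed when pCAF replicate 1 alone was left out.

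**Figure D4:**
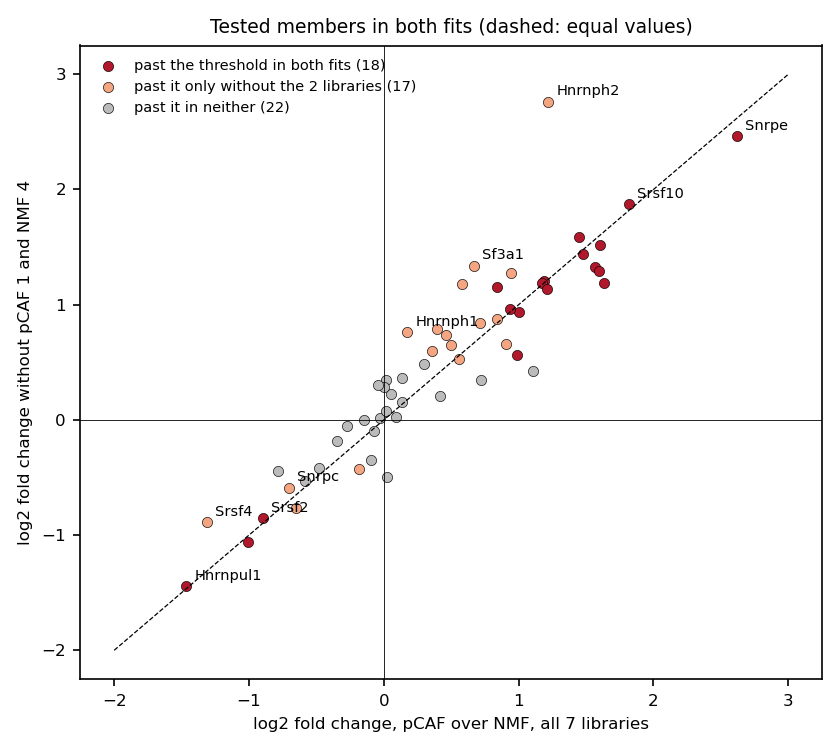
Log2 fold change of each tested splicing gene with all 7 libraries (horizontal) and without pCAF replicate 1 and NMF replicate 4 (vertical), colored by which fit passed an adjusted p of 0.05. All 18 members that passed with all libraries also passed without the pair, and 17 more passed without it.

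The splicing machinery outside these name families was read out of the same fit from lists of 192 further genes. Of the 166 tested, 19 were higher and 8 lower (11.4% and 4.82%), against 14.3% and 14.2% of all genes, so both shares were below those of the whole table. The median log2 fold change was 0.10, against 0.40 for the named families; the difference between the lists was not tested. With library totals the balance turned, to 11 higher and 14 lower, in a fit where all genes shifted as well. There 37.1% of all calls were on the higher side, against 50.2% with TMM, and the median of all genes was -0.26. Leaving out both libraries that stood apart gave 38 higher and 25 lower of 168, when 25.9% and 26.9% of all genes passed.

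Among other snRNP and tri-snRNP proteins, 2 of 35 rose and 3 fell (14.3% passed, against 28.4% of all genes). Dhx15, the helicase that takes spent spliceosomes apart, was at 136, 162 and 172 CPM in pCAF and 30.1, 50.2, 46.8 and 82.9 CPM in NMF, with the groups apart (2.97-fold, adjusted p = 0.00604). Usp39, a tri-snRNP protein, was 2.46-fold higher (35.1 ± 7.67 against 14.2 ± 1.15 CPM, SD, n = 3 and 4, adjusted p = 0.0103), and Prpf40b, a U1 partner, 2.77-fold lower (12.4 ± 0.533 against 34.5 ± 5.57 CPM, adjusted p = 0.00630). The call of Usp39 was lost with the replicate number as a block (adjusted p = 0.0661). Of 27 genes of the catalytic complex and its helicases, 2 rose and 1 fell (11.1% passed, against 28.4% of all genes). Cdc5l and Crnkl1 of the Prp19 complex were 2.06-fold and 1.97-fold higher (adjusted p = 0.0272 and 0.0335), and Syf2 of the same complex was lower, at 68.8, 82.8 and 76.5 CPM in pCAF against 127 to 212 CPM in NMF (2.23-fold, adjusted p = 0.00975). The calls of Cdc5l and Crnkl1 were lost without any of NMF replicates 1 to 3, and that of Crnkl1 also without pCAF replicate 2 or 3 (adjusted p up to 0.0816 and 0.120), both with library totals (0.0688 and 0.102), and that of Crnkl1 without a filter (0.0848).

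Other splicing regulators had 7 higher and 1 lower of 37 by edgeR (21.6% passed, against 28.4% of all genes). DESeq2 called 11 higher and 3 lower, and its share over all genes is not given here. Zranb2, a zinc finger protein that binds splice sites, was at 67.7, 56.3 and 52.7 CPM in pCAF and 13.1, 8.87, 8.45 and 9.90 CPM in NMF (5.82-fold, adjusted p = 2.45e-04). Mbnl2, a muscleblind protein, was at 268, 77.2 and 141 CPM against 24.7 to 34.6 CPM (5.47-fold, adjusted p = 0.00128), and Ptbp3, a polypyrimidine tract protein, at 41.6, 53.5 and 82.0 CPM against 15.4 to 28.7 CPM (2.92-fold, adjusted p = 0.00748). All 3 were higher in every pCAF library. SR-related proteins and SR kinases had 3 higher and 1 lower of 24 (16.7% passed, against 28.4% of all genes). The SR-like regulators Tra2b (3.11-fold, adjusted p = 0.00516) and Tra2a (3.04-fold, adjusted p = 0.0164) and Arglu1 (1.903-fold, adjusted p = 0.0345) rose. Tra2a did not pass without NMF replicate 1 (0.0610) or with the replicate number as a block (0.117), and was 2.01-fold higher without pCAF replicate 1. Arglu1 lost its call in 5 of 7 fits that left out 1 library, without pCAF replicate 1 or 3 or NMF replicate 2, 3 or 4 (adjusted p 0.0548 to 0.0987), with library totals (0.0928) and without a filter (0.0522).

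Of 20 genes of snRNP assembly and import, 2 rose and 1 fell (15% passed, against 28.4% of all genes). Strap, a partner of the SMN complex that loads Sm rings, was at 315, 178 and 179 CPM in pCAF and 79.6 to 108 CPM in NMF (2.47-fold, adjusted p = 0.00646). Kpnb1, the importin that carries snRNPs to the nucleus, was 2.00-fold higher (adjusted p = 0.0255), and Mepce, the capping enzyme of the 7SK RNA, 3.32-fold lower (adjusted p = 0.00406). Among 16 genes of the exon junction complex and nonsense-mediated decay, 3 rose and 1 fell (25% passed, against 28.4% of all genes). Magoh and Rbm8a encode partners that bind each other in the exon junction complex and went in opposite directions. Magoh was at 39.4, 59.1 and 57.6 CPM in pCAF and 14.7, 16.5, 16.5 and 10.1 in NMF (3.62-fold higher, adjusted p = 0.00183), and Rbm8a at 3.33, 2.25 and 2.77 CPM against 19.3, 14.8, 12.3 and 7.28 CPM (4.72-fold lower, adjusted p = 0.0116). Smg6, the nuclease of nonsense-mediated decay, was 2.28-fold higher (adjusted p = 0.0106). Calls were lost for Rbm8a with limma-voom (0.0623), for Smg6 without pCAF replicate 2 (0.0547) and for Kpnb1 with library totals (0.0856) or without pCAF replicate 2 or 3 or NMF replicate 1, 2 or 3 (0.0610 to 0.107). With the replicate number as a block Smg6 (0.0710) and Kpnb1 (0.105) did not pass either. Of the 7 tested decapping and P-body partners of the Lsm1 ring, 0 passed by edgeR, DESeq2 or limma-voom, and 0 in edgeR without the libraries that stood apart; an unadjusted p under 0.05 was found for 1 by edgeR and DESeq2 and, by limma-voom, for 1 in each direction.

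**Figure D5:**
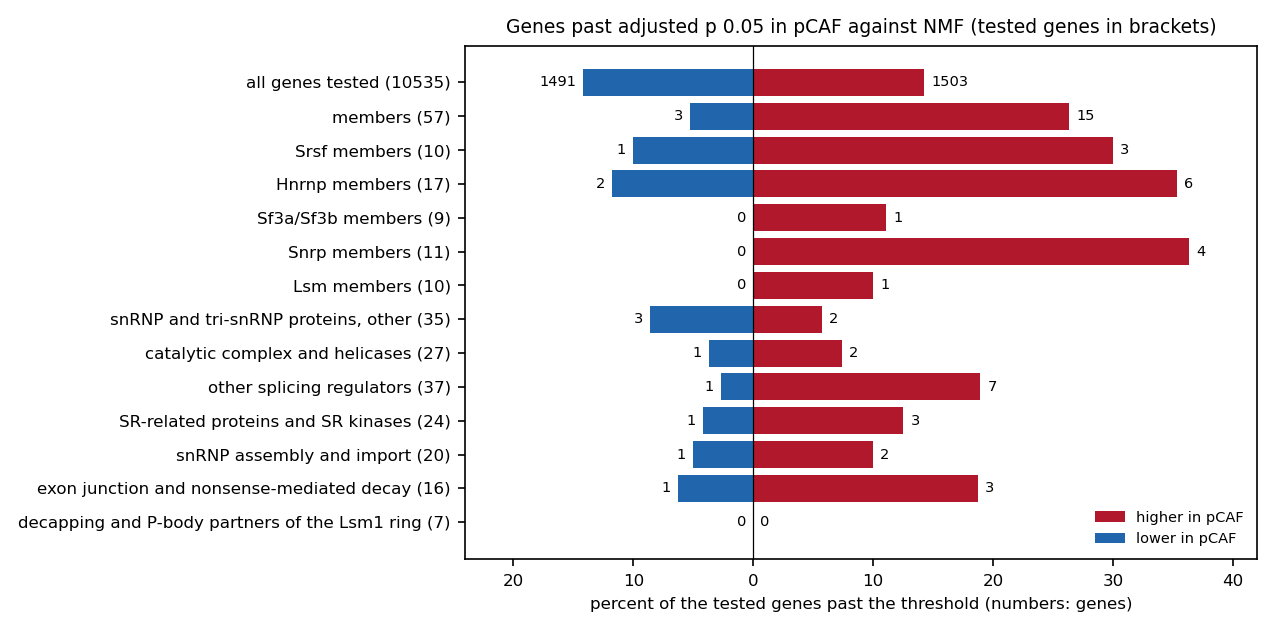
Percent of tested genes that were higher (right) or lower (left) in pCAF over all genes, over the members, in each of the 5 name families and in each list of other splicing genes, with the number of genes at each bar. The Hnrnp family holds 6 higher and 2 lower of 17, and the decapping list holds 0 of 7.

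Several cell type markers moved with the groups, and their part in the splicing gene results was not tested. Proliferation markers were higher in pCAF in 5 of 8 tested and lower in 0 (edgeR; DESeq2 called 6 and 0, and 6 were higher and 0 lower at an unadjusted p under 0.05), and all 8 log2 fold changes were positive; their summed level was 287 to 546 CPM in pCAF and 66.5 to 171 CPM in NMF. Mki67, the antigen of cycling cells, was at 46.0, 56.9 and 54.3 CPM in pCAF and at 1.16, 3.80, 1.76 and 0.747 CPM in NMF. Blood endothelial markers were lower in all 10 (summed level 49.4 to 69.3 CPM in pCAF, 1604 to 2772 in NMF), adipocyte markers in all 4 tested (1.66 to 59.3 against 1702 to 15435 CPM) and Schwann cell markers in all 5 (4.99 to 16.3 against 259 to 1010.0 CPM). Of 6 tested leukocyte markers 3 were lower by edgeR and DESeq2 and 0 by limma-voom (26.1 to 58.0 against 20.2 to 186 CPM), with Ptprc, which encodes CD45, at 0 counts in every pCAF library. Csf1r was the 1 of these markers with a positive log2 fold change (1.21, adjusted p = 0.154 by edgeR). It was at 27.2, 10.7 and 11.6 CPM in pCAF and 3.36 to 14.1 CPM in NMF. Among 7 tested markers of epithelium and 4T1 carcinoma 3 were lower by edgeR, 4 by DESeq2 and 1 by limma-voom (76.5 to 244 against 69.7 to 376 CPM), with Epcam at 0 to 3.33 CPM in pCAF and 7.66 to 24.7 CPM in NMF. Krt18, Krt8, Krt14 and Cldn3 overlapped between the groups and did not pass by edgeR (log2 -0.25, -0.03, 0.28 and -1.73). Krt18 was at 41.0, 124 and 160 CPM in pCAF and 35.5 to 206 CPM in NMF. Pericyte and smooth muscle markers were higher in 1 and lower in 3 of 7, and lymphatic endothelial markers higher in 1 and lower in 1 of 3, at sums of 23.3 to 46.8 CPM in pCAF and 32.4 to 78.8 CPM in NMF. Erythroid markers had too few counts to be tested. The defining fibroblast genes were present in all libraries: 5 of 8 were higher in pCAF, with sums of 69145 to 80383 CPM against 22081 to 41247 CPM. Dcn (decorin) was lower in every pCAF library, at 3867 to 6057 CPM against 6397 to 12045 CPM in NMF, without passing (log2 -0.85, adjusted p = 0.0736). It was called lower by DESeq2 (0.0323), with library totals (0.0218), without pCAF replicate 1 (0.0184) and without both libraries that stood apart (4.25e-04), and its adjusted p reached 0.210 in the other fits. Pdgfra overlapped between the groups (log2 0.05, adjusted p = 0.916) and Fap did not, without passing (log2 0.88, adjusted p = 0.0787). Fap was called higher without NMF replicate 4 (0.00559), with the replicate number as a block (0.0242) and without both libraries that stood apart (5.37e-05). Its adjusted p reached 0.202 in the other fits. Pdpn, which was used in the sort of pCAF alone, was at 987, 281 and 384 CPM in pCAF and 44.1 to 58.4 CPM in NMF.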

How the data were processed

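Libraries of the 3' ends of polyadenylated RNA were made from 7 sorted samples, 3 pCAF and 4 NMF. Per the file headers and values, the authors deposited raw counts per gene symbol for 24421 symbols. The submitters' processing notes name HTSeq, bcl2fastq, mm10 and STAR 2.4.2a; strand use, molecular identifiers and multi-mapping rules are not given in the sources used here.

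The splicing genes and lists were chosen with earlier results of these data known. The fit used edgeR 4.0.16 in R 4.3.3: filterByExpr left 10535 genes, libraries were scaled by TMM, and pCAF was compared with NMF by the two-sided robust quasi-likelihood F test. P-values were adjusted after Benjamini and Hochberg over these genes, with a threshold of 0.05. CPM use the effective library sizes. Floors of 3 counts cover counting error only, and reads were not known to be separate molecules. The fit was also run on simulated counts with planted changes. These held no libraries that stood apart, so that run does not speak for the present data.

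Positions are from GENCODE M21 (mm10). The last 300.0 bp of transcripts were searched with blastn 2.17.0 for copies of at least 80 bp at 95% identity, and the last 1000.0 bp for overlapping genes. Promoters are from RefSeq, GRCm38.p6, and 56 of 65 members matched.

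Named genes were Srsf1, Hnrnpa1 and Sf3b1, up to 5 changed members in each direction per family, 2 abundant members per family that did not pass, the 3 on each side of the threshold and up to 3 changed genes per other list. Snrpc, Snrpf, Snrpg, Snrpb2, Sf3a1, Sf3b4, Srsf4, Srsf6, Hnrnpf, Hnrnph2, Lsm3, Lsm14b and the remaining members were named after their values were seen. Alternatives were DESeq2 1.42.0 size factors and test, library totals, upper quartile scaling, limma 3.58.1 voom, no filter, a mean of at least 10 CPM, libraries thinned to 1885039 counts, the replicate number as a block, and each library left out. Plots were drawn with matplotlib 3.10.9 and pandas 2.3.3 in Python 3.11.15.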

Additional observations from a re-analysis of the deposited data

Results flagged for a closer look

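Of 61 genes looked at, 4 had 1 NMF library farther from the other 3 than Dixon's 95% limit for groups of 4 allows; chance gives about 1 in 20 such groups. Srsf11 was at 191 CPM in NMF replicate 4, against 75.3 to 89.8 CPM in the others. Snrpc was at 12.1 CPM in the same library, against 63.4 to 66.3 CPM. Hnrnpa2b1 was at 60.6 CPM in NMF replicate 1, against 86.8 to 87.4 CPM, and this gene's pCAF values lay above all of these. Hnrnpdl was at 21.2 CPM in NMF replicate 1, against 28.6 to 29.98 CPM. Groups of 3, as in pCAF, were not looked at.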

How the results depend on the processing

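Of the 18 changed members, 18 passed with DESeq2 size factors and with thinned libraries, and 17 with upper quartile scaling and with limma-voom. With no filter 16 passed, and with library totals 14. When genes were kept at a mean of 10 CPM or more 16 passed, and the others, Srsf1 and Srsf10, were removed before the test. DESeq2's own test called 21, with 5 lower, and its share over all genes is not given here. Leaving out 1 library in turn gave 9 to 19 members higher and 0 to 4 lower, 10 to 23 other splicing genes higher and 4 to 11 lower, and 1016 to 2021 genes higher and 979 to 2187 lower in all; leaving out pCAF replicate 2 or NMF replicate 1 or 2 each left 10 called members. With library totals 11 other splicing genes were higher and 14 lower, when 37.1% of the calls over all genes were on the higher side. Without pCAF replicate 1 and NMF replicate 4 together, chosen after seeing the data, there were 28 members higher and 7 lower, 38 and 25 other splicing genes, and 2802 and 2913 genes in all.

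Replicate numbers were not used as pairs, since libraries with the same number correlated at -0.09, 0.08 and -0.01 after removal of group means. With the replicate number as a block, 9 members were higher and 1 lower, 9 other splicing genes higher and 5 lower, and 978 genes higher in all; 10 of the 18 members remained. That fit keeps fewer degrees of freedom and gives NMF replicate 4 a term of its own. Among the other splicing genes named above, Usp39, Cdc5l, Crnkl1, Tra2a, Arglu1, Kpnb1 and Smg6 lost their calls in it (adjusted p 0.0661 to 0.119).

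A log2 fold change of the opposite sign was found in at least 1 other fit for 17 members, 0 of which had passed with all libraries; the cause was not tested. For Hnrnpm it was -0.019 with DESeq2 size factors, -0.20 with library totals, -0.022 with upper quartile scaling, -0.019 with DESeq2, -0.16 with voom, -0.035 with no filter, -0.0037 at a mean of 10 CPM or more and -0.22 with the block. For Srsf11 it was -0.22 with library totals, -0.025 with upper quartile scaling and -0.012 with no filter. For Hnrnph1 it was -0.0100 with library totals, -0.46 with voom and -0.21 with the block. Sf3a1 was at -0.84 with voom. Sf3b2 was at 0.0034 with thinned libraries, 0.090 with the block and 0.018 without both libraries. Lsm8 was at -0.013 and Lsm3 at -0.076 with the block. With 1 library left out the log2 fold change ran from -0.24 to 0.36 for Hnrnpm, from -0.13 to 0.44 for Srsf11, from -0.28 to 0.69 for Hnrnph1, from -0.12 to 0.11 for Sf3b2 and from -0.17 to 0.061 for Snrpd2. Over all fits it ran from -0.58 to 0.27 for Hnrnpl, -0.35 to 0.14 for Lsm10, -0.19 to 0.45 for Lsm11, -0.33 to 0.30 for Lsm7, -0.50 to 0.27 for Sf3a2, -0.27 to 0.51 for Sf3a3, -0.15 to 0.20 for Sf3b3, -0.21 to 0.23 for Snrpa and -0.35 to 0.45 for Srsf9.

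The 8 untested members held at most 20.0 counts in a library, and Sf3b1 and Hnrnph2 few more. The parts of depth, near-identical 3' ends and read counting in these low values were not tested.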
